A study of Mus musculus with 16 samples.

Results

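Open chromatin was examined around the 8 mouse troponin genes (Tnnt1, Tnnt2, Tnnt3, Tnni1, Tnni2, Tnni3, Tnnc1 and Tnnc2), taken by name from 21938 protein-coding genes. Around each gene body plus 20 kb on each side, every peak of the ATAC-seq lists was kept, which gave 51 of the 80290 regions formed by merging overlapping peaks of 14 libraries. ATAC-seq marks DNA that a transposase can reach, and each library's peaks had been called separately, so a region is present in a library when that library has a peak there.

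The cells were C2C12iMyoD1, a polyclonal population of the mouse C2C12 myoblast line that keeps its own MyoD1 and carries dox-inducible Halo-MyoD1 behind a TRE3G promoter; this holds for every group, the controls included. They were kept proliferating in growth medium (GM) or were starved of serum for 24 h (DM, the first day of differentiation), each with 24 h of doxycycline (+dox) or vehicle (no dox). The question was whether raised MyoD1 levels open chromatin in proliferating and in differentiating myoblasts. The paper reports that, in differentiating cells of this population, only a minority of nuclei showed the induced protein. It also reports that the dox concentration mainly set this fraction. A +dox library can therefore mix cells with and without raised MyoD1, and a change confined to expressing cells would be diluted. No library combined dox with cells lacking the transgene, so an effect of dox itself was not tested. GM wells received 75000 cells and DM wells 300000 cells, so medium and seeding density cannot be told apart. There were 16 libraries, 4 per group. Replicate 1 of both DM groups was left out here, following the published methods. That leaves 4 libraries without and 4 with dox in GM, and 3 without and 3 with dox in DM, and group values are given in this order.

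Troponin is the calcium switch of the thin filament of striated muscle. Troponin C binds calcium, troponin I holds contraction off until calcium arrives, and troponin T ties the complex to tropomyosin. Tnnt1 and Tnni1 encode the slow skeletal forms and Tnnc1 the slow skeletal and cardiac form, Tnnt3, Tnni2 and Tnnc2 encode the fast skeletal forms, and Tnnt2 and Tnni3 encode the cardiac forms; cardiac Tnnt2 is also made early in skeletal muscle differentiation. Genes for troponin I and troponin T lie next to each other in the genome, and here the windows of Tnni1 and Tnnt2 on chromosome 1 and of Tnnt1 and Tnni3 on chromosome 7 overlapped, so the 8 windows formed 6 loci.

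The lists differed in length from 14710 to 58587 peaks, and genome-wide background coverage, solved from the peaks' fold enrichment and p, ranged from 0.339 to 1.13 fragments per base. Each list was therefore used in full and cut to its 14710 strongest peaks by p, the length of the shortest list (GM no dox replicate 1). Of 6 myoblast markers, Myod1, the factor that was raised, had a peak within 1 kb of an annotated start in all 14 libraries. Des had one in 3, 4, 3 and 3, Cdh15 in 2, 4, 1 and 3, Pax7 in 2, 3, 1 and 3, Myf5 in 1, 2, 0 and 3 and Msc in 1, 1, 0 and 1 libraries of the groups, and in lists of equal length Des, Pax7, Myf5 and Msc had none. Markers of 6 other cell types (Ptprc, Cdh5, Epcam, Sox10, Alb and Adipoq) had none in any library. Of the differentiation genes, the starts of Myog, Myh3, Mymk and Acta1 had none either, in GM or in DM, and that of Ckm had one in 1, 4, 1 and 3 libraries of the groups in the order above. In bulk cells, fewer cells with an open site and less opening per cell cannot be told apart.

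Few libraries had a peak at the coding starts of the troponin genes. Within 1 kb of the start of any transcript with a consensus coding sequence (CCDS), Tnnt1, Tnnt2, Tnni1, Tnni3 and Tnnc1 had no peak in any of the 14 full lists, whereas 40.4% of 20331 genes with such a transcript had none. Tnnc2 had one in 1 GM +dox and 2 DM +dox libraries (region 24, with its summit 741 bp from the start), and so did Tnnt3 (region 43, 865 bp). Tnni2 had one in 2 GM no dox, 1 GM +dox and 2 DM +dox libraries (region 41). No DM no dox library had a peak at a coding start of any member, and no member had one in every library, against 26.4% of the genes with a CCDS transcript. At any annotated start, noncoding and internal ones included, Tnni1 had a peak in 2, 4, 3 and 3 libraries and Tnnt1 in 2, 4, 0 and 2. In lists of equal length the single case was Tnni2 in 1 GM no dox library, beside 54.3% of genes with none.

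**Figure D1:**
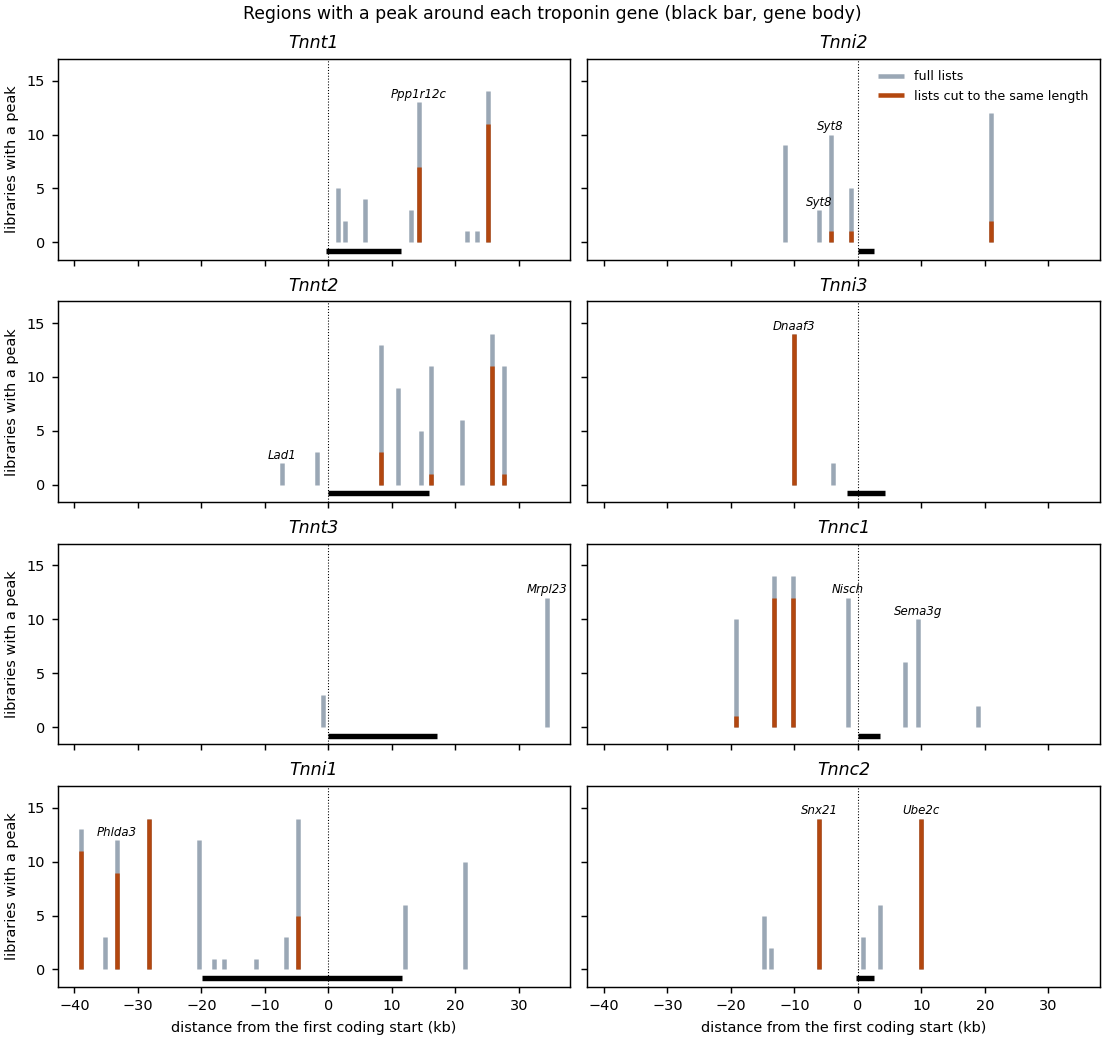
Number of the 14 libraries with a peak (vertical axis) at each region, against the distance of its summit from the first coding start of the nearest troponin gene (horizontal axis, kb, positive in the direction of transcription), for full lists (grey) and lists of equal length (orange). Names above bars are other genes whose start lies within 1 kb, and the tall bars in all 14 equal-length lists stand at Snx21, Ube2c, Dnaaf3 and 8317 bp upstream of the Tnni1 gene.

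Most regions in the windows had their summit outside the troponin genes themselves. The gene bodies, 2.60 to 31.6 kb long, are the smaller part of windows that add 20 kb on each side. The shares of regions inside a gene, or nearest another gene, were not computed for the windows of all genes. Of the 51 regions, 12 had their summit inside a member (9 in introns and 3 in exons), 21 lay upstream and 18 downstream. For 29 regions the nearest protein-coding start belonged to another gene, and 11 of these were within 1 kb of it. A peak in all 14 full lists was found at 9 regions, 17.6% of the troponin regions beside 13.8% of all regions. Of these 9, 3 were starts of neighbours (Snx21, Ube2c and Dnaaf3, at 12, 107 and 98 bp) and 1, region 10, lay inside a member. Regions are numbered 1 to 51 along the 6 loci.

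The sequences below are those of the regions on which the following results turn, 100 bases on each side of the summit in GRCm38, the assembly behind mm10. Region 5 lies at the 5′-most Tnni1 transcript, region 10 is the intronic Tnni1 region, regions 46 and 47 are the upstream Tnnc1 regions with a peak in every library, and regions 17, 23, 38 and 40 are those whose full lists separated +dox from no dox in DM. Capitals mark CAGCTG, the E-box form that MyoD1 prefers, CATTCC or its reverse complement GGAATG, the core bound by TEAD factors, TGANTCA, bound by AP-1, and CTANNNNTA, a MEF2 core.
Region 5, upstream of Tnni1, chr1:135779010-135779210, plus strand: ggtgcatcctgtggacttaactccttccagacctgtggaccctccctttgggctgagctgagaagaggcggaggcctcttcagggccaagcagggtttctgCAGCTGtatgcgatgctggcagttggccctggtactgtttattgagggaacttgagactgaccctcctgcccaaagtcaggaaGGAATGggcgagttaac
Region 10, Tnni1 intron, chr1:135794583-135794783, plus strand: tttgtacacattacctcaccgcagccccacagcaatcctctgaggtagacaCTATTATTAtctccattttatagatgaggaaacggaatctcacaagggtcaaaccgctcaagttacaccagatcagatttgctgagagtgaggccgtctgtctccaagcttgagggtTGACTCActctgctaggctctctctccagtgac
Region 46, upstream of Tnnc1, chr14:31195046-31195246, plus strand: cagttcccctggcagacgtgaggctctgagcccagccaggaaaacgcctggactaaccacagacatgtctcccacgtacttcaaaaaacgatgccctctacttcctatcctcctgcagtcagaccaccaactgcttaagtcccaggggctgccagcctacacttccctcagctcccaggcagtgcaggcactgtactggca
Region 47, upstream of Tnnc1, chr14:31197942-31198142, plus strand: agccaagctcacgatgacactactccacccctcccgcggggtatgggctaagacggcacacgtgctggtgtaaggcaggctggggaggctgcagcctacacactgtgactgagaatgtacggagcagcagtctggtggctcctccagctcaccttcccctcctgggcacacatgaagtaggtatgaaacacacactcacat
Region 17, Tnnt2 intron, chr1:135850827-135851027, plus strand: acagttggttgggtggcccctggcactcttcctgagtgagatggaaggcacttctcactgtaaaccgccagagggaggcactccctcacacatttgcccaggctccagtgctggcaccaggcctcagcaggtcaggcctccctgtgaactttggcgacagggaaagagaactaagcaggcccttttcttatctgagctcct
Region 23, downstream of Tnnc2, chr2:164776223-164776423, plus strand: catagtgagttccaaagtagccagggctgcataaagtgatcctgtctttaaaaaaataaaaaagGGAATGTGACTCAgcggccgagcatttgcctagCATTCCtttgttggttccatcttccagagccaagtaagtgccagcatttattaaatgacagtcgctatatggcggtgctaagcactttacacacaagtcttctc
Region 38, upstream of Tnni2, chr7:142430179-142430379, plus strand: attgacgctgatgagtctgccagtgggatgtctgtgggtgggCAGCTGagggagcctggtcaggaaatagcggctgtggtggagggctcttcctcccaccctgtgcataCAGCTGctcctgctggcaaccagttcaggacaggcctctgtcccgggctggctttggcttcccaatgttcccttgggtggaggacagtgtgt
Region 40, upstream of Tnni2, chr7:142437415-142437615, plus strand: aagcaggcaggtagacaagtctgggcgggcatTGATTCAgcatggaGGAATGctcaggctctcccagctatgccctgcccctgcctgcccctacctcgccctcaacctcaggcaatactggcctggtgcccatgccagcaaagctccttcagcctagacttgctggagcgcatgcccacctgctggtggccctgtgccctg

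CAGCTG stood in regions 5 and 38, in region 38 at 2 places, and in 9 of the 51 troponin regions, beside 19.9% of all regions. The general E-box CANNTG, which includes CAGCTG, was found in 38 of 51 (68.1% of all regions), CATTCC in 10 (17.8%), TGANTCA in 14 (31.7%) and CTANNNNTA in 6 (14.6%), on both strands. Region 10, the one intronic region open in every library, held a MEF2 core and an AP-1 match and no E-box. RefSeq promoters (GRCm38.p6, 250 bases before to 50 after a start) were given for 6 members, with 2 starts each for Tnni1 and Tnnt2. Those of Tnni1 and 1 of Tnnt2 held CAGCTG, as 16.3% of 32851 promoters did. Those of Tnni1, that of Tnnt1 and the other of Tnnt2 held the MEF2 core, which 21% of promoters did. The 2 Tnni1 promoters overlap and share the same CAGCTG and the same MEF2 core. A match is a description of these letters only.

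Among the slow troponin genes, Tnni1, which encodes slow skeletal troponin I, had the most peaks of the 8, in the longest window. Per 100 kb of window Tnni1 had 18.2 regions and Tnnt1 19.3. In lists of equal length its window held 2, 2, 3 and 3 peaks in GM no dox, 2, 3, 4 and 3 in GM +dox, 2, 3 and 3 in DM no dox and 3, 3 and 3 in DM +dox. The mean of 2.79 over 14 libraries was above that of 90.8% of protein-coding genes, whose median was 0.857, with no correction for gene length. The groups overlapped in every comparison. These Tnni1 peaks were at regions 1, 3, 4 and 10, in 11, 9, 14 and 5 equal-length lists. For regions 1, 3 and 4 the nearest protein-coding start was that of the neighbour Phlda3, at 5658, 13 and 3983 bp. In full lists the 4 GM +dox libraries held 12, 9, 8 and 7 Tnni1 peaks and the 3 DM +dox libraries 7, 6 and 7.

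Region 10 lay in a Tnni1 intron, 4719 bp before the first coding start (chr1:135794476-135794999). Its fold enrichment over local background was 3.89, 10.9, 6.27 and 10.7 in GM no dox and 14.8, 18.6, 11.8 and 8.07 in GM +dox. In DM it was 5.70, 6.45 and 7.87 without dox and 16.2, 10.1 and 10.9 with dox. All 3 DM +dox values stood above all 3 DM no dox values on this scale, which is not centred per library, while the GM groups overlapped. After centring on the median of each library the DM groups overlapped too. Region 5 (chr1:135778853-135779638) lay 324 bp from the 5′-most annotated Tnni1 transcript, which is not a coding one. It had a peak in 2 of 4 GM no dox libraries and in every library of the other 3 groups, with folds from 5.69 to 10.9, and was among the 14710 strongest peaks in none.

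Tnnt1, which encodes slow skeletal troponin T, held 2 peaks in each GM no dox library, 2, 2, 3 and 3 in GM +dox, 3, 2 and 2 in DM no dox and 1, 3 and 3 in DM +dox in lists of equal length. None of these peaks lay in the gene body. They were regions 28 and 31, nearest the start of Ppp1r12c (4118 and 62 bp), and region 37, at the start of Dnaaf3 (98 bp). Inside it, full lists held regions 33, 34 and 35, in 4, 2 and 5 libraries, near starts of shorter annotated transcripts. Region 35, with its summit in an untranslated exon 17 bp from such a start, was present in 1, 3, 0 and 1 libraries of the groups.

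Tnnc1, which encodes slow skeletal and cardiac troponin C, held 2, 2, 2 and 1 peaks in GM no dox, 2, 3, 1 and 2 in GM +dox, 1, 2 and 1 in DM no dox and 2, 2 and 2 in DM +dox. They were mainly regions 46 and 47, 13166 and 10270 bp upstream, both in the neighbouring gene Nisch and both present in all 14 full lists. Region 46 (chr14:31194913-31195483) had folds of 4.54, 12.2, 7.49 and 11.9 in GM no dox, 13.9, 15.6, 11.8 and 10.9 in GM +dox, 4.87, 6.65 and 8.01 in DM no dox and 15.6, 10.2 and 11.1 in DM +dox. Region 47 (chr14:31197914-31198476) had 6.44, 8.97, 5.68 and 7.04, then 10.1, 7.70, 7.95 and 9.78, then 10.4, 9.62 and 12.1, and last 10.3, 13.2 and 9.23 in the same order. On this scale, which is not centred per library, the DM no dox libraries lay below both +dox groups at region 46 and not at region 47. After the centring described further on they overlapped DM +dox at region 46.

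Among the fast genes no equal-length list held more than 2 peaks for any gene. Tnnc2, which encodes fast skeletal troponin C, held 2 peaks in every one of the 14 equal-length lists, at the starts of Ube2c and Snx21. Tnnt3, which encodes fast skeletal troponin T, held none in any equal-length list, as did 33.5% of protein-coding genes, and its full lists held 0 to 2, at region 43 and at the start of Mrpl23 (region 44, in 12 libraries). Tnni2, which encodes fast skeletal troponin I, held 2, 0, 1 and 0 in GM no dox, 0, 1, 0 and 0 in GM +dox and none in either DM group.

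Of the cardiac genes, Tnnt2, which encodes cardiac troponin T, held 3, 2, 1 and 1 peaks in GM no dox, 1, 3, 1 and 0 in GM +dox, 1, 0 and 1 in DM no dox and 1, 1 and 0 in DM +dox. The most frequent Tnnt2 regions were region 20, 9942 bp downstream and present in all 14 full lists, and region 15 in an exon, in 13. Tnni3, which encodes cardiac troponin I, held a single peak in each GM no dox library, 1, 1, 2 and 2 in GM +dox, 2 in each DM no dox library and 1, 2 and 2 in DM +dox. The Tnni3 peaks were the start of Dnaaf3 in all 14 libraries and, where there were 2, the start of Ppp1r12c. No region lay inside the Tnni3 gene.

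**Figure D2:**
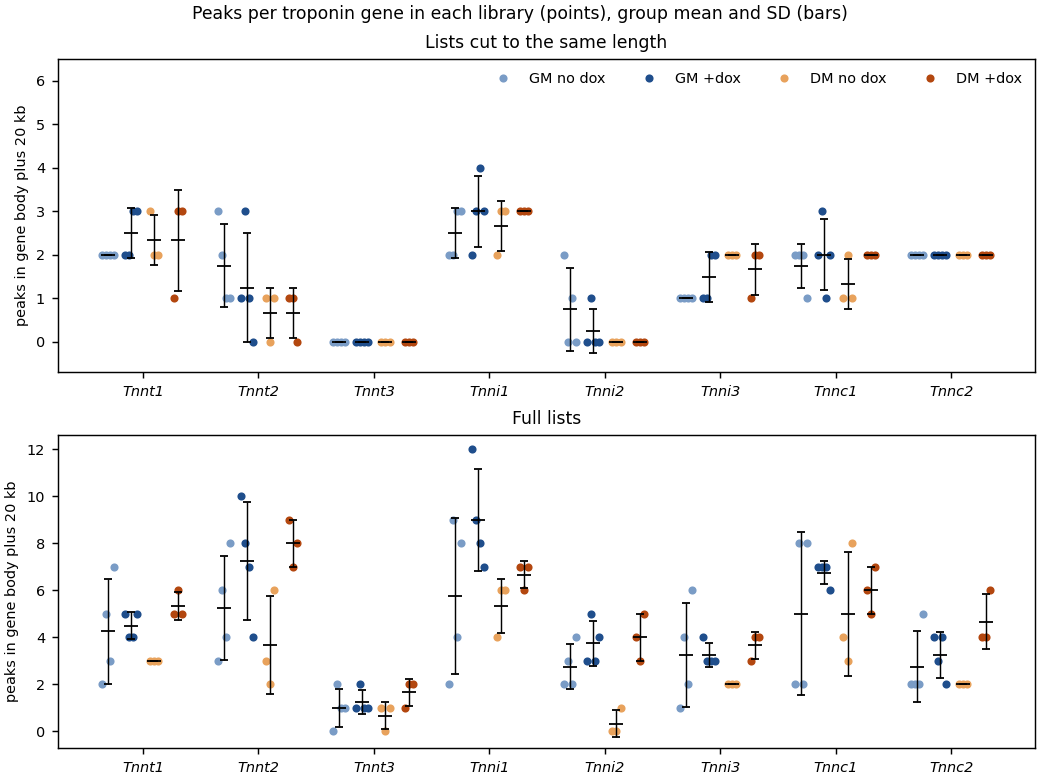
Number of peaks in the gene body plus 20 kb (vertical axis) for each troponin gene (horizontal axis), in lists of equal length (top) and full lists (bottom); points are libraries, coloured by group, and bars the group mean and SD (n = 4, 4, 3 and 3). In equal-length lists the groups separate for Tnni3 alone (1 in each GM no dox library, 2 in each DM no dox library), and in full lists the Tnni2 values of DM no dox (0, 0 and 1) lie below those of the other groups.

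Counted once each, troponin peaks numbered 10.8 ± 1.71 in GM no dox, 11 ± 2.16 in GM +dox, 9 ± 0 in DM no dox and 10 ± 1 in DM +dox (SD, n = 4, 4, 3 and 3) in lists of equal length. Per 10000 peaks of the full lists there were 8.33 ± 0.461, 7.41 ± 0.443, 6.73 ± 0.399 and 7.14 ± 0.657. The GM no dox libraries lay between 7.80 and 8.84 and the DM no dox libraries between 6.40 and 7.18. In lists of equal length these 2 groups overlapped, with 13, 10, 11 and 9 peaks in GM no dox and 9, 9 and 9 in DM no dox. How often other sets of genes separate in this way was not computed, so the rates are a description only.

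The first question was whether inducing MyoD1 with dox changed bulk accessibility at the troponin genes in proliferating cells. Cut to equal length, the lists gave no member non-overlapping peak numbers for +dox against no dox in GM, where 0.156% of 14143 genes were higher and 0.212% lower throughout. No troponin region was all-or-none, with a peak in each library on one side and in none on the other, beside 0.163% of 23334 regions higher and 0.124% lower. Full lists gave no such gene or region either, beside 1.33% of 17348 genes higher and 0% lower and 0.446% of 69455 regions higher and 0% lower. The mean difference per troponin gene was 0.0938 peaks in equal-length lists.

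In differentiating cells the answer depended on list length. Cut to equal length, no member separated +dox from no dox, where 1.36% of 13923 genes were higher and 0.812% lower, and no troponin region did, where 0.82% of 21470 regions were higher and 0.787% lower. In full lists Tnnt1, Tnnt2, Tnni2, Tnni3 and Tnnc2 were higher in all 3 DM +dox libraries than in all 3 DM no dox libraries, and so were 19.7% of 17129 genes. Tnnt2 held 9, 7 and 8 peaks with dox and 3, 2 and 6 without, and Tnnc2 held 4, 4 and 6 with dox and 2, 2 and 2 without. Tnni2 held 4, 3 and 5 with dox and 0, 0 and 1 without. The two-sided exact permutation p was 0.1 for each of the 5, the smallest that 3 against 3 libraries allow (adjusted p = 0.509 over all genes).

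4 troponin regions were present in all 3 DM +dox full lists and in no DM no dox full list, beside 5.37% of 63484 regions. Region 17 lay in a Tnnt2 intron, with folds of 6.88, 5.88 and 6.88 in DM +dox. Region 23 lay 838 bp downstream of Tnnc2, with folds of 10.5, 9.86 and 7.70. Regions 38 and 40 lay 11529 and 4293 bp upstream of Tnni2, with folds of 8.25, 5.92 and 5.91 and of 6.20, 9.73 and 7.09, and both were also present in every GM +dox library. In GM no dox, region 38 was present in 2 of 4 libraries and region 40 in 3 of 4. The nearest protein-coding start was that of the neighbour Syt8, 4571 bp from region 38 and 617 bp from region 40.

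These peaks ranked low in their lists. The DM +dox lists held 46241 to 51340 peaks and the DM no dox lists 23690, 24181 and 40599, and the 4 regions ranked between 23624 and 40033 in DM +dox. With all 6 lists cut to 23690 peaks, no member separated the groups (background 1.76% of 15595 genes higher) and no troponin region did (background 1.02% of 34263 regions). Tnni2 then held 0, 1 and 0 peaks with dox and none without, and Tnnt1 3 peaks in all 6 libraries. These lengths were chosen after the data had been seen.

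**Figure D3:**
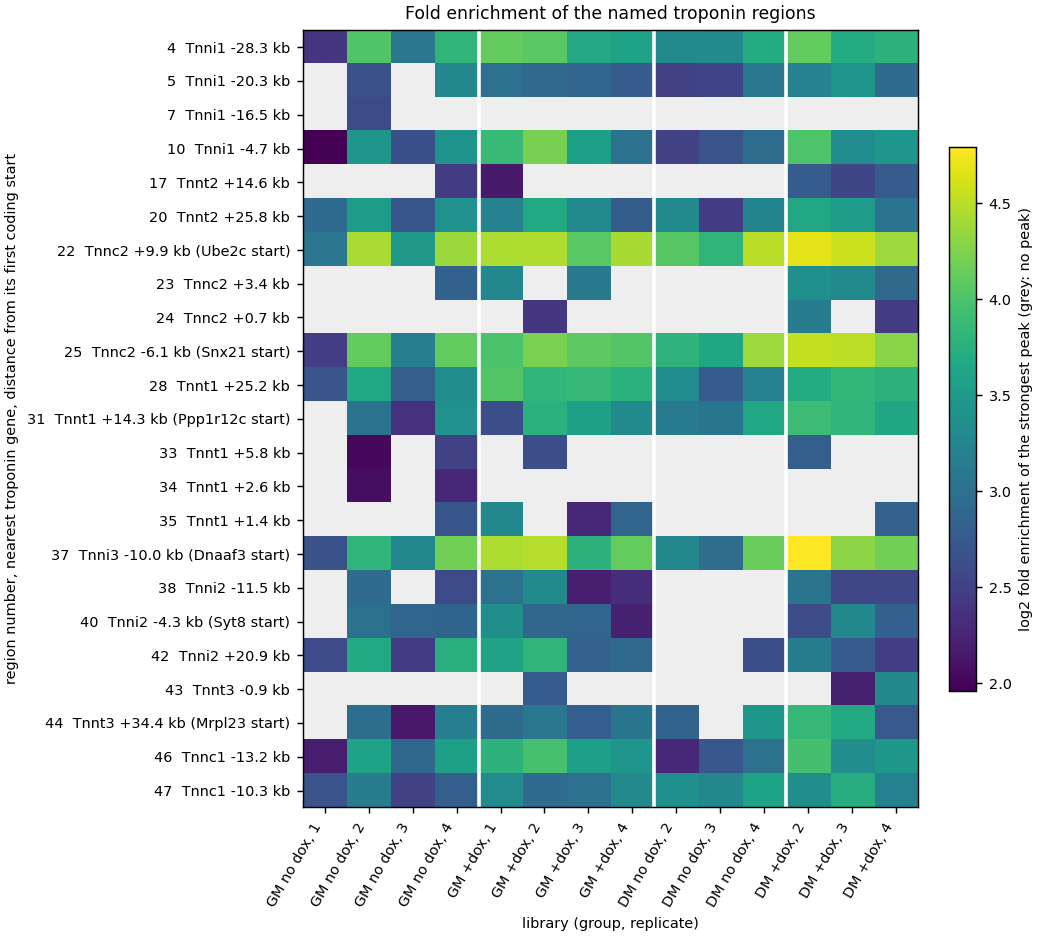
Fold enrichment (log2 colour scale, grey where a library has no peak) of the named regions and of those present in all 14 libraries, by row, in each library of the full lists, by column; row labels give the region number, the nearest troponin gene and the distance from its first coding start. Regions 38 and 40 near Tnni2 are grey in all 3 DM no dox libraries and coloured in all GM +dox and DM +dox libraries. Region 40 is itself at the start of a neighbour, Syt8. Rows at the starts of Ube2c, Snx21, Ppp1r12c, Dnaaf3 and Mrpl23 are coloured in 12 to 14 libraries.

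Differentiation without dox was compared next. In lists of equal length Tnni3 had more peaks in all 3 DM no dox libraries (2, 2 and 2) than in all 4 GM no dox libraries (1, 1, 1 and 1), a two-sided exact permutation p of 0.0286, the smallest possible, and an adjusted p of 1 over all genes. In full lists the direction turned, with 2, 2 and 2 Tnni3 peaks in DM no dox against 1, 4, 2 and 6 in GM no dox (difference −1.25), and the groups also overlapped in lists of 7355 peaks and with all 16 libraries. Of 14224 genes 1.31% were higher and 1.11% lower in this way. The difference was region 31 (chr7:4501071-4502398), at the start of Ppp1r12c (62 bp) and 2828 bp beyond the end of Tnnt1, the single troponin region that was all-or-none, beside 0.986% of 23631 regions. In full lists 3 of 4 GM no dox libraries also had a peak there, with folds of 8.24, 5.17 and 10.5 against 8.76, 8.32 and 12.5 in DM no dox, at ranks of 25268, 19012 and 15977 there, beyond the limit of 14710, and of 11153, 12014 and 10986 in DM no dox.

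In full lists the opposite direction was seen at Tnni2. The GM no dox libraries held 2, 3, 2 and 4 Tnni2 peaks and the DM no dox libraries 0, 0 and 1, as 0.0768% of 16917 genes were lower throughout (two-sided exact permutation p = 0.0286, adjusted p = 1). The GM no dox library with the fewest peaks in all, 14710, held 2 at Tnni2, at regions 41 and 42, and region 41 ranked 14167 there. The DM no dox library with the most peaks, 40599, held 1. Whether list length plays a part was not tested. In equal-length lists the values were 2, 0, 1 and 0 against 0, 0 and 0 and overlapped. Region 42, 18327 bp downstream of Tnni2, was present in 4 of 4 GM no dox and 1 of 3 DM no dox libraries.

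With dox, no member and no troponin region separated DM from GM in equal-length or in full lists. In equal-length lists 1.38% of 14030 genes were higher and 1.1% lower, and 1.11% of 22451 regions were higher and as many lower. In full lists 2.21% of 17497 genes were higher and 0.423% lower, and 1.49% of 75263 regions were higher and 0.319% lower. With all 7 lists cut to 36531 peaks, the shortest of these, Tnni1 held 6, 6 and 6 peaks in DM +dox and 11, 7, 8 and 7 in GM +dox (two-sided exact permutation p = 0.0857, adjusted p = 0.977), beside 1.65% of 16713 genes lower.

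Fold enrichment was then compared at the 9 troponin regions present in all 14 full lists, with limma on log2 fold enrichment centred on the median of each library over 11046 such regions. At an adjusted p of 0.05 none of the 9 changed in any of the 4 comparisons or in the interaction of dox and medium. Over all 11046 regions, limma called none with dox in GM, 0.0634% lower with dox in DM, 0.0724% higher and 0.407% lower in DM against GM without dox, and 0.0181% higher and 0.235% lower with dox. The median difference of the 9 regions was 0.19 with dox in GM, −0.01 with dox in DM, −0.12 in DM against GM without dox and −0.04 with dox, beside medians of −0.02, −0.03, 0.01 and −0.01 over all regions. The smallest adjusted p (limma) was 0.836, 0.484, 0.222 and 0.669 in this order.

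At an unadjusted p of 0.05, limma gave 2, 3, 3 and 0 of the 9, beside 5.71%, 8.58%, 11.4% and 8.75% of all 11046 regions. With dox in GM these were region 10 in the Tnni1 intron (0.38 ± 0.17, log2 difference ± SE) and region 37 at the Dnaaf3 start (0.30 ± 0.14). With dox in DM they were region 37 (0.44 ± 0.17), region 46 (0.40 ± 0.18) and region 47 (−0.51 ± 0.24). In DM against GM without dox they were region 25 at the Snx21 start (0.37 ± 0.13), region 46 (−0.49 ± 0.17) and region 47 (0.53 ± 0.22). The estimates at regions 46 and 47 had opposite signs in both comparisons, which share the DM no dox libraries. The interaction gave 0 of the 9 at an unadjusted p of 0.05, beside 2.55% of all regions by limma.

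The 3 DM no dox libraries had centred log2 values of −1.13, −0.58 and −0.83 at region 46, below all 4 GM no dox values of −0.50, −0.35, −0.27 and −0.29. At region 47 they had −0.02, −0.04 and −0.23, against 0.00, −0.79, −0.67 and −1.05, where GM no dox replicate 1 overlapped them. The DM +dox libraries had −0.26, −0.61 and −0.46 at region 46 and overlapped the DM no dox libraries there. At region 47 they had −0.87, −0.24 and −0.72, below all 3 DM no dox values, with −0.24 and −0.23 the nearest. The GM +dox libraries had −0.15, −0.09, −0.18 and −0.17 at region 46, above all GM no dox and all DM +dox values. By limma, region 46 had an adjusted p of 0.887 with dox in GM and of 0.669 in DM against GM with dox. The share of all regions whose centred values separate in these ways was not computed. Fold enrichment as written by the peak caller adds 1 to both terms of the ratio and so depends on depth. Centring removes in part the differences between whole libraries, whether from depth or otherwise. With the replicate number as a block, limma called 70 in place of 7, 186 in place of 53 and 156 in place of 28 of all regions in the last 3 comparisons, and none of the 9 troponin regions was called (smallest adjusted p by limma 0.0742).

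**Figure D4:**
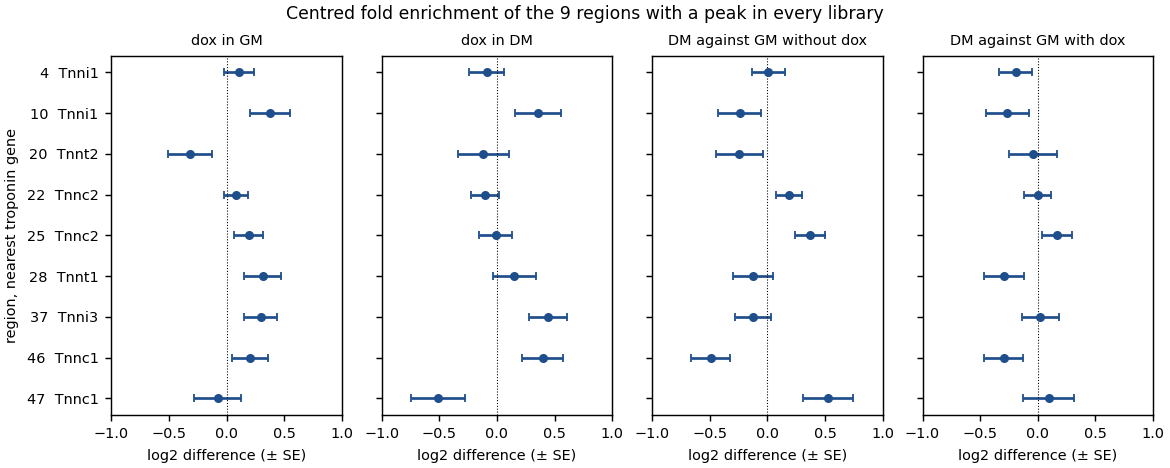
Difference in centred log2 fold enrichment (horizontal axis, first group minus second, ± SE from limma) of the 9 troponin regions present in all 14 full lists (vertical axis), one panel per comparison. Regions 46 and 47 lie on opposite sides of 0 with dox in DM (0.40 and −0.51) and in DM against GM without dox (−0.49 and 0.53), and none of the points passed an adjusted p of 0.05.

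The other genes of the thin filament were read from a list of 12: the actins Acta1 and Actc1, the tropomyosins Tpm1, Tpm2 and Tpm3, Neb, the pointed-end proteins Tmod1, Tmod4, Lmod2 and Lmod3, and Klhl40 and Klhl41. In lists of equal length none separated the groups with dox in GM. With dox in DM, 2 of the 12, of which 7 had any peak, were higher and none lower, beside 1.36% of all genes higher: Tmod1, which caps the filament's pointed end (2.00 ± 0 against 0.333 ± 0.577 peaks, SD, n = 3), and Lmod2, which elongates it (1 in each DM +dox library and 0 in each DM no dox library). In DM against GM, Lmod3, a nucleator of actin filaments in skeletal muscle, was lower without dox (0 against 1.25 ± 0.50) and with dox (0 in each DM library, 1 in each GM library), and Lmod2 was higher with dox. Of all genes, 1.11% and 1.1% were lower in these comparisons without and with dox, and 1.38% were higher with dox. In full lists 2 of 12 were higher with dox in DM, Tpm3 and Klhl40, beside the background of 19.7%. Tmod1, Lmod2 and Lmod3 separated no groups in full lists. There Lmod3 held 1.67 ± 0.58 peaks in DM and 1.75 ± 0.50 in GM without dox. With dox it held 2.67 ± 0.58 in DM and 2.25 ± 0.50 in GM. No adjusted p over all genes was below 0.509 in these tests.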

How the data were processed

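ATAC-seq was measured in 16 libraries of 4 groups. The study's methods describe nf-core/atacseq on mm10 with blacklisted regions removed and ATAC-seq peaks called with MACS2; aligner and caller versions are not given in the sources used here. The deposited narrowPeak lists give each peak's fold enrichment over local background and its −log10 p and −log10 q, as the authors' caller wrote them; no −log10 q was below 1.30, and there was 1 list per library. The reads were not used here. No 2 of the lists were identical (120 pairs).

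Peaks overlapping by at least 1 bp were merged into regions, and a peak belonged to a gene when it overlapped the GENCODE M21 body plus 20 kb. The members, the marker and thin filament lists and the tests were chosen with earlier results of these data known. Peak numbers were compared by two-sided exact permutation tests with Benjamini-Hochberg adjustment over all protein-coding genes with a peak, and by whether the groups overlapped. Regions were compared by presence in every library of one group and none of the other. Fold enrichment of the 11046 regions with a peak in all 14 lists was centred per library on the log2 scale and tested with limma 3.58.1 (trended empirical Bayes) in R 4.3.3. Other steps used Python 3.11.15, pandas 2.3.3, numpy 2.4.6, scipy 1.17.1 and matplotlib 3.10.9. The depth solution, the permutation tests and the limma step were tested on simulated data. Named regions were those within 1 kb of a member's start, those all-or-none in a comparison, those passing the fold enrichment test and the 2 most frequent of each locus. The rule was written for 5 loci, and the windows formed 6. The rule for genes of like pattern named none, since no member's start-site region was in the fold enrichment test.

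Depth was read from pileups solved from fold enrichment and p where −log10 p was below 30, with a tolerance of 0.001 in −log10 p. Same-numbered libraries deviated together in every pair with dox in GM (correlations 0.167 to 0.276), with dox in DM (0.190 to 0.364) and in DM against GM with dox (0.191 to 0.463), and without dox in 2 of 3 pairs (lowest 0.0976). The pairing comes from these deviations, since the labels say only that the replicates were biological. Alternatives were full lists, lists of 7355 peaks, a −log10 q of at least 2, ranking by fold enrichment, other windows, all 16 libraries, leaving out each library, the replicate block and other scalings of fold enrichment.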

Additional observations from a re-analysis of the deposited data

Results flagged for a closer look

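Among 54 groups of 4 GM libraries checked, 8 had a library far from the other 3, and chance gives about 1 in 20 groups. A peak number that is the same in 3 libraries and different in the other always meets this criterion. In lists of equal length these were Tnni2 in GM +dox replicate 2 (1 peak, 0 in the others) and Tnnc1 in GM no dox replicate 4 (1 peak, 2 in the others). In full lists they were Tnnt3 in GM +dox replicate 2 (2 peaks, 1 in the others), Tnni3 in GM +dox replicate 1 (4 peaks, 3 in the others), Tnnc1 in GM +dox replicate 4 (6 peaks, 7 in the others) and Tnnc2 in GM no dox replicate 4 (5 peaks, 2 in the others). The centred log2 fold enrichment of region 20, downstream of Tnnt2, was 0.26 in GM no dox replicate 1, above the other 3. That of region 28, downstream of Tnnt1, was −0.24 in GM +dox replicate 2, below the other 3.

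DM +dox replicate 1, which was left out of the comparisons, held 8 troponin peaks in a list of 14236. It is given because it holds values outside the comparisons. Its rate of 5.62 per 10000 peaks was below the 6.40 to 8.84 of the libraries compared, so no excess is shown. They were at regions 12, 18, 20, 22, 25, 28, 41 and 46.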

How the results depend on the processing

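Of 464 alternative values of the 30 main results, 433 were marked as the same. A count was the same when equal or, if above 0, of similar size. A mean was the same when it stayed within the spread, even where its sign changed. Most main results were counts of 0, so this share is no measure of robustness. With dox in DM, the genes higher without overlap numbered 0 in lists of equal length, 5 in all deposited peaks and at a −log10 q of at least 2, and 0 to 1 leaving out each library, with 1 without DM no dox replicate 3. The regions numbered 0, then 4 and 4, and 0 to 1, again without DM no dox replicate 3. In DM against GM without dox, the single higher gene (Tnni3) and region fell to 0 in all deposited peaks, in lists of 7355 peaks, at the stricter q and with all 16 libraries, and the gene also in the gene body alone. Genes lower there numbered 1 in place of 0 in all deposited peaks, at the stricter q and in lists ranked by fold enrichment, and regions lower 0 to 1 without DM no dox replicate 2 or 3. With dox, 1 gene was lower in DM in lists of 36531 peaks. The Tnni3 difference without dox turned from 1 to −1.25 in all deposited peaks and at the stricter q.

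The mean difference per troponin gene with dox in GM was 0.0938 peaks in lists of equal length, and 1.12 in all deposited peaks and at the stricter q. With dox in DM it was 0.0833, against 2.25 in all deposited peaks, 2.21 at the stricter q, −0.0833 in lists ranked by fold enrichment and 0.344 with all 16 libraries. In DM against GM it was −0.0938 without dox, against −1 in all deposited peaks and at the stricter q and −0.438 with all 16 libraries, and −0.104 with dox, against −0.354 in lists of 7355 peaks. Leaving out each library gave −0.0104 to 0.198, 0 to 0.188, −0.167 to 0 and −0.208 to 0 in this order. With the replicate block the means were 0.0938, 0.0833, 0 and −0.208, and the block changed no call on the troponin genes, the troponin regions or the fold enrichment of the 9 regions. For these changes the cause was not tested. The 8 fold enrichment results with an unadjusted limma p below 0.05 had 95 alternative values. All 95 kept the sign of the difference, and none reached an adjusted p of 0.05 by limma. No alternative setting called a troponin region in any comparison between groups.

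Limits: 3 against 3 libraries cannot reach an exact p below 0.1. Full lists run from 14710 to 58587 peaks, peak lists hold no reads outside peaks, and a peak that misses the threshold is no evidence of closed chromatin.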

Other observations

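The 2 DM libraries left out had short lists. DM no dox replicate 1 held 1287 peaks and none in a troponin window. DM +dox replicate 1 held 14236 peaks at a background coverage of 0.167 fragments per base, below the 0.339 to 1.13 of the libraries compared, and its 8 troponin peaks came to 5.62 per 10000. They included the starts of Ube2c and Snx21 beside Tnnc2 and region 46 upstream of Tnnc1.

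Among the troponin regions within 1 kb of any protein-coding start, the TEAD core CATTCC was found in 7 of 18, beside 9.90% of all such regions. Of these 18 regions, 11 were at starts of other genes. CATTCC stood in regions 3, 22, 40 and 44, at the starts of Phlda3, Ube2c, Syt8 and Mrpl23. It also stood in region 5 at a Tnni1 start and in regions 33 and 35 at Tnnt1 starts. Among the other troponin regions it was found in 3 of 33, beside 19.6%. The E-box CAGCTG was found in 4 of 18 and 5 of 33, beside 14.5% and 21.2%. These counts are descriptions and were not tested.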
